A study of Mus musculus with 22 samples.

Results

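Chondroitin sulfate is built by a small family of Golgi enzymes, and the array data cover its 6 members that start or extend the chain: Chsy1, Chsy3, Chpf, Chpf2, Csgalnact1 and Csgalnact2. They were taken by enzyme family, through the gene name, an older symbol or the RefSeq accession of each probe. They had 9 probes and make up 6 of the 18627 genes and unnamed probes tested. The samples were forelimbs of mouse embryos of strain 129 at 13.5 days: 13 Chsy-1 knockout samples and 9 wild-type samples. The design text calls them biological replicates. The labels do not say whether a sample is 1 embryo or a pool, which part of Chsy1 was altered or what sex the embryos were, and the spread behind each p-value is that between these samples, which may be technical. The RNA of each sample carried the dye Cy5 and shared its array with a Cy3-labelled universal mouse reference RNA, a commercial mixture that was the same on all 22 arrays. A log2 ratio is log2 of Cy5 over Cy3. It sets the forelimb against the reference for 1 probe and does not rank genes by abundance.

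Chondroitin chains hang on core proteins through a short linker sugar. Csgalnact1 and Csgalnact2 transfer the N-acetylgalactosamine that starts the chain on that linker. Chsy1 and Chsy3 carry the glucuronic acid and N-acetylgalactosamine transferase activities that alternate to lengthen it, and work in complexes with Chpf and Chpf2. These activities were worked out mainly on the human and mouse proteins. The chains load the aggrecan of cartilage, which forms in the limb skeleton at this stage, and loss of Chsy1 in mice is known for short digits and altered digit joints.

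Spots with Cy5 well above background numbered 27214 to 30599 of 43379 non-control spots per array, and the median Cy5 signal was 102.8 to 178.9 units over a background of 54 to 57 units. Precision is limited by the number of arrays. The 6 slides each held both genotypes, but position on the slide was tied to genotype: positions 3 and 4 held 10 knockout arrays, position 2 held 3 of each genotype, and position 1 held 6 wild-type arrays. Of the forelimb mesenchyme markers, 12 of 12 had a mean above the reference in wild type. Among all tested genes, 48.5% passed above the reference there (limma, adjusted p under 0.05), a stricter count than a mean above it. The median wild-type log2 ratio over all tested genes was 0.099. Tbx5, the forelimb T-box factor, averaged 2.41 in knockout and 2.20 in wild type on the log2 ratio scale. The hindlimb list was also above the reference in 4 of 4 tested genes, and Pitx1, a hindlimb homeobox factor, averaged 5.45 in knockout and 5.63 in wild type. These counts therefore do not tell forelimb from hindlimb.

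The stretches from 250 bases before to 50 after the gene start are shown for 3 members, the targeted gene, a cofactor and an initiator, so that their base composition can be compared. They are RefSeq sequences on GRCm38.p6, 5′ to 3′ on the strand of the gene, with the GC box GGGCGG or its complement CCGCCC in capitals. Of the 6 members, 4 were matched in the promoter table.
Chsy1: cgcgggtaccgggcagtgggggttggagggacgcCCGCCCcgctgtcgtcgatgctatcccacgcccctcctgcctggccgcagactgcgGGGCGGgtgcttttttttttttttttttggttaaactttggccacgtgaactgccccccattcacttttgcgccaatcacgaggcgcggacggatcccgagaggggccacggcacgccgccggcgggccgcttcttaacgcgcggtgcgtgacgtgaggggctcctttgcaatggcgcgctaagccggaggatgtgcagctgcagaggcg
Chpf: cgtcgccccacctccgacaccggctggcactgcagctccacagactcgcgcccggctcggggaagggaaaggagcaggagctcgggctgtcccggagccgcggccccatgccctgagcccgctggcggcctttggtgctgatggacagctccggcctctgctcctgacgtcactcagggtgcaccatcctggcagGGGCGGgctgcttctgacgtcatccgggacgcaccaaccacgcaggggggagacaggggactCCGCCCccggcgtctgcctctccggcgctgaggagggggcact
Csgalnact2: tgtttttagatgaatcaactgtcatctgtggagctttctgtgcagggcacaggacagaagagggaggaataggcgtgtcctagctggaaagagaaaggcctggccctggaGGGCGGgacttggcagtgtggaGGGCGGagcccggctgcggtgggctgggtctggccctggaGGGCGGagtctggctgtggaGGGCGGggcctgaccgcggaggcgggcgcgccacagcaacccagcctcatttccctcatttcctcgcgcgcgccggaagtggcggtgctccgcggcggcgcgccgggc
The Chsy1 window (chr7:66109242-66109541, plus strand) had 65.3% G and C and 2 GC boxes. The Chpf window (chr1:75479422-75479721, minus strand) had 71.7% and 2 GC boxes. The Csgalnact2 window (chr6:118139091-118139390, minus strand) had 67% and 4 GC boxes. Csgalnact2 has another listed start with no GC box in its window. Chpf2, not printed, had 60.3% and no GC box. All 4 genes lay above the median of 52.7% over 32851 promoters of the same length, of which 35.7% held a GC box on either strand. Searched on both strands, the TATA box letters TATAAA were in none of the windows of the 4 genes, against 13.6% of all promoters. The SOX factor words ACAATG (12.6% of all promoters) and the similar ACAAAG (18.7%) were in none of them either. A match is a description of letters, not of binding.

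Only Chsy1 passed the test between genotypes. Of the 6 members, 1 fell and 5 did not pass; over all tested genes 4 passed, all lower in knockout, which is 0.0215% (limma, adjusted p under 0.05 after Benjamini-Hochberg adjustment over all 18627). The 4 became 2 without wild-type 2, wild-type 5 or wild-type 6, and Chsy1 passed in each of these. Of the 5 others, Csgalnact1 had the largest difference, at an unadjusted p under 0.05, as 5.33% of all genes had in either direction and 3.95% lower in knockout. Under median centring the median difference of all genes moved to 0.24, and relative to it the members other than Chsy1 differed by -0.30 to 0.08, with Chpf at -0.07, Chpf2 at 0.05 and Csgalnact2 at 0.08; before subtracting it those 3 were higher in knockout. Groups that did not overlap were seen for 1 member, Chsy1, which was also the 1 such gene of all tested (0.00537%).

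**Figure D1:**
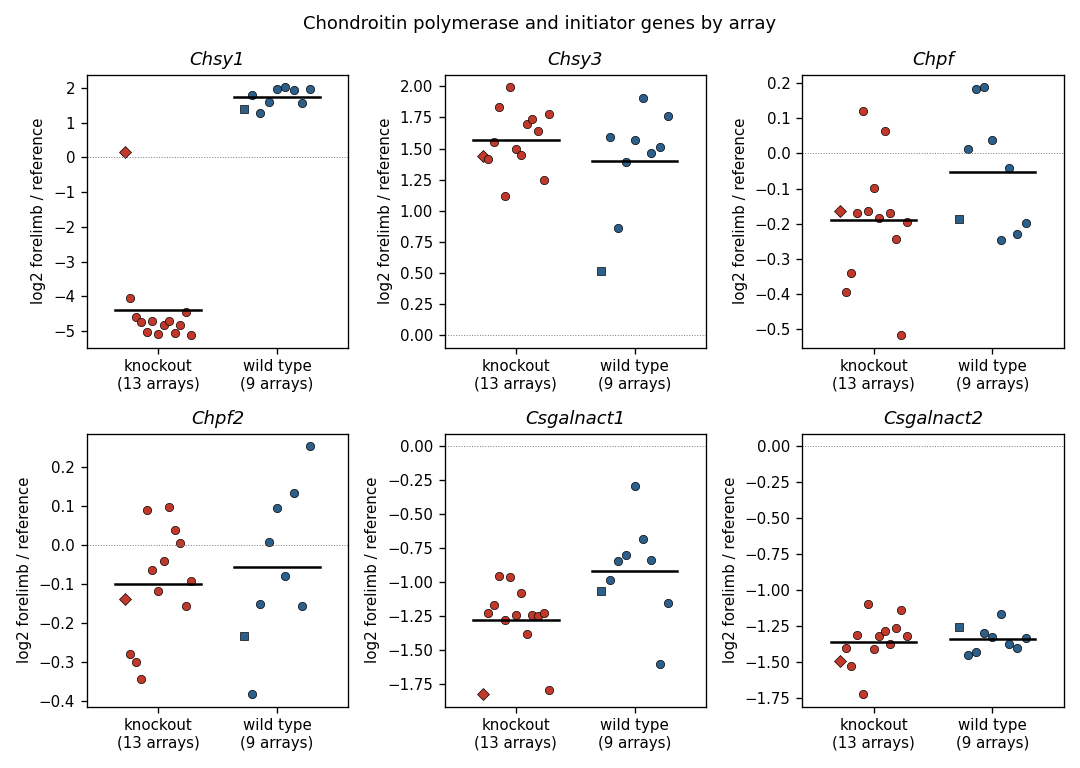
Log2 ratio of Cy5 over Cy3 on each array for the 6 members, knockout arrays (13) left of wild-type arrays (9), with a black line at each group mean, a diamond for knockout 1 and a square for wild-type 1. For Chsy1, 12 knockout arrays lie far below the wild-type arrays and knockout 1 lies between; for the other members the groups overlap.

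Chsy1, the polymerase that the knockout targets, has 1 probe, at chr7:66052663-66052722 on the mm8 coordinates of the files. Its log2 ratio had a lowest value of -5.12, a median of -4.73 and a highest of 0.15 over the 13 knockout arrays, against 1.28, 1.79 and 2.02 over the 9 wild-type arrays. Every knockout array lay below every wild-type array, and the highest knockout value, that of knockout 1, stood alone. The means were -4.38 ± 1.39 in knockout (SD, n = 13) and 1.73 ± 0.28 in wild type (SD, n = 9). The difference was -6.11 on the log2 scale (SE 0.44, 95% interval -7.02 to -5.21, adjusted p = 1.27e-08), a 69.1-fold fall. The exact two-sided permutation test over arrays gave p = 2.01e-06, the smallest it can give.

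The residual Chsy1 signal was at most 1.82% of the wild-type mean ratio in 12 knockout arrays. The lowest of these 12 was 0.869% and the median 1.1%, with single wild-type arrays at 73.2% to 122%. Knockout 1 stood at 33.6%. The Cy5 signal before any correction was 115.6 to 267 units on the 12 arrays, 6227 on knockout 1 and 6319 to 19834 on the wild-type arrays. Over its local background it was 2.07- to 4.69-fold on the 12 arrays, 113.2-fold on knockout 1 and 112.8- to 360.6-fold on the wild-type arrays. Thus the signal on the 12 arrays was low but still above its local background. Knockout 1 lay close to the lowest wild-type array, wild-type 3, in Cy5 signal before correction. With median centring in place of loess, knockout 1 stood at 46% of the wild-type mean and the lowest wild-type array at 53.8%. With Cy5 normalised between arrays, the log2 signal was 12.40 on knockout 1 and 13.45 on wild-type 3. The offset of 50 units added in the background correction lifts such low signals: without it the 12 arrays held 0.533% to 1.45%, and by the ratio of the scanner software 0.399% to 1.31%. Where the probe lies relative to the altered part of the gene is not stated in the sources used here. The residue is signal at the probe alone, and whether it comes from Chsy1 RNA was not tested.

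**Figure D2:**
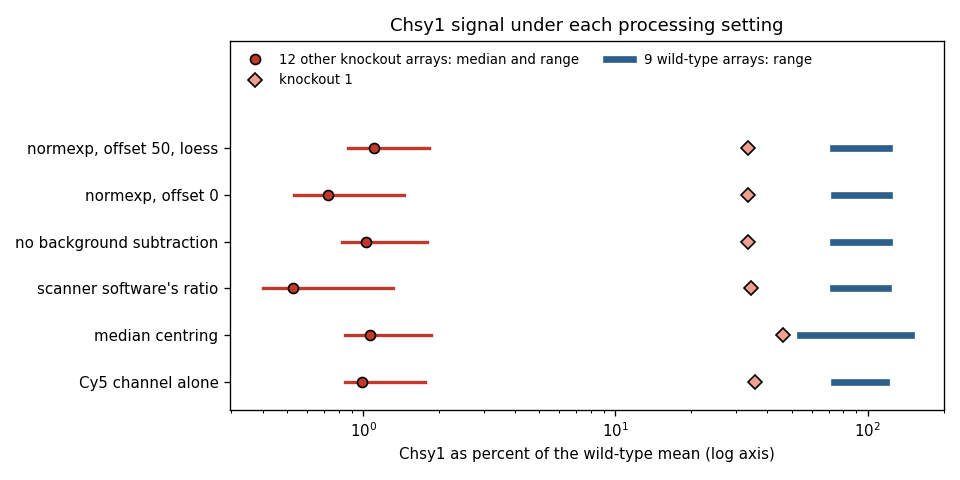
Chsy1 in each array as percent of the wild-type mean ratio, on a log axis, under 6 ways of processing. In the main processing the 12 lower knockout arrays hold 0.869% to 1.82% and knockout 1 holds 33.6%.

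Outside Chsy1, the library labelled knockout 1 was at the edge of the knockout arrays for Csgalnact1 alone. Among the 13 knockout arrays it took rank 3 from the lowest for Csgalnact2, rank 4 for Chsy3, rank 5 for Chpf2 and rank 9 for Chpf. For Csgalnact1 it was the lowest, at -1.83 against a mean of -1.24 (SD 0.22) over the other knockout arrays. Its mean correlation with the other knockout arrays, across genes, was 0.967, while wild-type 1 had 0.906 with its own group, the lowest of all 22. Without knockout 1 the Chsy1 difference was -6.49 over all arrays, and -6.69 instead of -4.94 on slide 4, where it sat. In position 2, which alone holds both genotypes, Chsy1 differed by -4.66 and missed the threshold (3 arrays of each, knockout 1 included, adjusted p = 1); all 3 knockout arrays there lay below the 3 wild-type arrays. Within the 6 slides it was lower in knockout in 6, by -6.67 to -4.94.

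Chsy3, the other polymerase, was above the reference in both genotypes and did not pass between them. Its 3 probes lie on chromosome 18. The probe that represents the gene had a lowest, median and highest log2 ratio of 1.12, 1.55 and 1.99 in knockout, against 0.52, 1.51 and 1.91 in wild type. The groups overlapped nearly whole, and the lowest array of all was wild-type 1. The difference was 0.17 (95% interval -0.11 to 0.46, adjusted p = 0.931), which as knockout over wild type runs from 0.93 to 1.37. The brighter of the other probes gave a difference of 0.18. The dimmest gave -0.0097 and had Cy5 above background on 12 arrays, 7 knockout and 5 wild type. Within slides the difference was negative in 3 of 6, with a range of -0.28 to 0.80. It was 0.06 without wild-type 1, 0.07 with array weights and -0.11 in position 2 alone.

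Each member's level was also set against the reference. Chsy1 averaged 0.0479-fold of the reference in knockout, against 3.31-fold in wild type. For Chsy3 the reference signal was not well above background on any of the 13 knockout arrays. It was well above background on 2 of the 9 wild-type arrays. The Chsy3 folds, 2.97-fold in knockout and 2.63-fold in wild type, thus rest on a reference near background. The size of the Chsy3 ratio depended on the processing: the mean log2 ratio was 1.57 in knockout and 1.40 in wild type as reported, 2.72 in knockout and 2.46 in wild type with normexp at offset 0, 3.94 in knockout and 3.71 in wild type with the ratio of the scanner software, and 1.01 in knockout and 0.90 in wild type with its probes averaged. Raising the reference on each array to at least the lowest signal well above background left the 2.97-fold and 2.63-fold values unchanged. The Chsy3 reference signal was already at or above that floor, so this check could not change them. Whether the true ratios are larger was not tested. Without swapped dyes, a dye bias of the probe cannot be told apart from these levels. Csgalnact1 averaged 0.411-fold in knockout and 0.529-fold in wild type, and Csgalnact2 0.390-fold in knockout and 0.395-fold in wild type. Chpf (0.877-fold in knockout, 0.964-fold in wild type) and Chpf2 (0.933-fold in knockout, 0.962-fold in wild type) lay close to the reference. In knockout 1 member lay above the reference and 4 below, with Chpf2 at the threshold (limma, adjusted p = 0.05); of all tested genes 49.8% lay above and 37.5% below, 87.2% in all. In wild type 2 members lay above and 2 below (limma, adjusted p under 0.05); of all tested genes 48.5% lay above and 35.7% below, 84.2% in all. Most genes on the array differ from the reference, so these counts do not single out the members. With median centring in place of loess, both Chpf (0.53 in knockout, 0.37 in wild type, log2) and Chpf2 (0.78 in knockout, 0.49 in wild type) turned to above the reference, while the median of all genes stood at 0.53 in knockout and 0.33 in wild type.

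Chpf, the polymerizing factor that partners Chsy1 in chain building, did not pass between genotypes. Its probe lies at chr1:75357941-75358000 (mm8). The lowest, median and highest log2 ratios were -0.52, -0.17 and 0.12 in knockout, against -0.25, -0.04 and 0.19 in wild type. The groups overlapped, with 11 of 13 knockout arrays under the median of wild type and 3 below the lowest wild-type array. The difference was -0.14 (95% interval -0.29 to 0.02, adjusted p = 0.918), and the exact permutation test gave p = 0.0809. As knockout over wild type the interval runs from 0.82 to 1.01. It was lower in knockout in 4 of 6 slides.

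Chpf2, a relative of Chpf, also did not pass. Its brightest probe (chr5:24102213-24102272, mm8) had -0.34, -0.09 and 0.10 as lowest, median and highest log2 ratio in knockout, against -0.38, -0.08 and 0.25 in wild type. The wild-type range held every knockout value. The difference was -0.04 (95% interval -0.19 to 0.11, adjusted p = 0.975), and its other probe (chr5:24099244-24099303) gave 0.0099. As knockout over wild type the interval runs from 0.87 to 1.08. In position 2, with 3 arrays of each genotype, the difference of the brightest probe was larger, at -0.32 (limma unadjusted p = 0.0367, adjusted p = 1), and -0.37 without knockout 1; the other probe gave -0.05 there.

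Csgalnact1, an initiator of the chain, leaned lower in knockout without passing the adjusted test. Its probe (chr8:71287048-71287107, mm8) had a lowest, median and highest log2 ratio of -1.83, -1.25 and -0.95 in knockout, against -1.60, -0.85 and -0.29 in wild type. The wild-type median was above each of the 13 knockout arrays, but the groups overlapped, with 2 knockout arrays below the lowest wild-type array. The difference was -0.36 (SE 0.13, 95% interval -0.62 to -0.10), 1.29-fold lower, with an unadjusted p of 0.00803 and an adjusted p of 0.909 (limma). The exact two-sided permutation test gave p = 0.0112.

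The Csgalnact1 difference was uneven over slides. It was -0.15, 0.03 and -0.09 on slides 1 to 3, and -0.82, -0.87 and -0.60 on slides 4 to 6. Slides 4 to 6 each held a single wild-type array, in position 1, while slides 1 to 3 held wild-type arrays in positions 1 and 2. The differences by slide are thus tied to position. In position 2 it was -0.21 with knockout 1 and -0.0024 without it. Knockout arrays averaged -1.41, -1.15 and -1.38 in positions 2, 3 and 4, whereas wild-type arrays averaged -0.78 in position 1 and -1.20 in position 2. The gap between the wild-type positions is thus about as large as the gap between genotypes, and in all but position 2 genotype and position cannot be told apart.

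Cartilage markers were measured beside the initiator, since cartilage is rich in these chains. None of 17 passed between genotypes, and 13 were lower in knockout, with a median difference of -0.08 over the list against -0.0072 over all genes. The 1 cartilage marker with an unadjusted p under 0.05 was Sox5, a chondrocyte transcription factor, which averaged 1.66 in knockout and 1.32 in wild type, a difference of 0.34 (limma unadjusted p = 0.00741, adjusted p = 0.909). Their summed Cy5 signal was 79414 to 116456 units in knockout and 80112 to 141471 in wild type. In such whole-limb samples fewer cells of a type and less RNA per cell cannot be told apart, and the part of tissue makeup in the Csgalnact1 values was not tested.

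Csgalnact2, the other initiator, was steady. Its probe (chr6:118073265-118073324, mm8) had -1.72, -1.32 and -1.10 as lowest, median and highest log2 ratio in knockout, against -1.45, -1.33 and -1.17 in wild type. Knockout arrays lay on both sides of the narrow wild-type range, 3 below it and 2 above. The difference was -0.02 (95% interval -0.15 to 0.11, adjusted p = 0.987), which as knockout over wild type runs from 0.90 to 1.08.

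**Figure D3:**
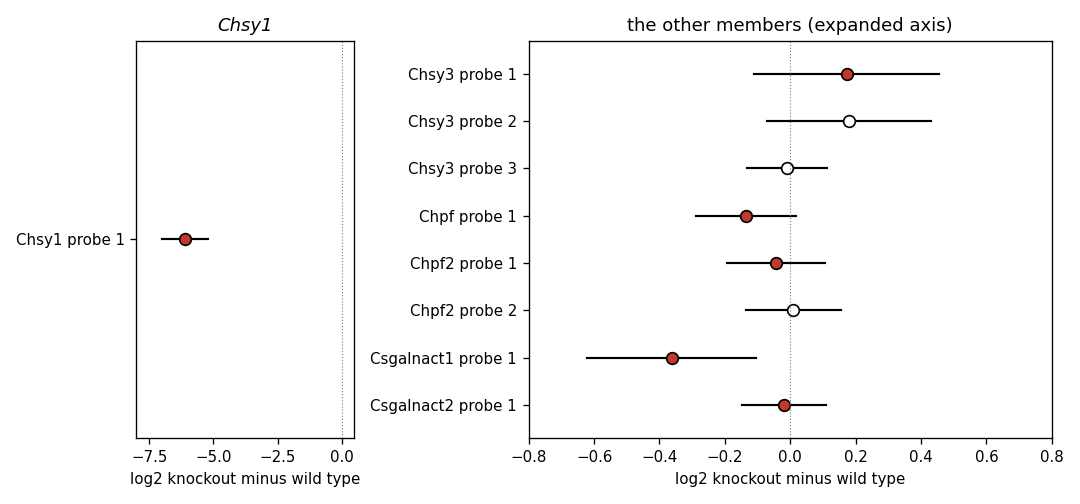
Difference of knockout minus wild type in log2 ratio for each of the 9 probes, with 95% intervals from the fit over all probes; filled points are the probes that represent a gene and open points its other probes, and Chsy1 has an axis of its own. The interval of the Chsy1 probe lies between -7.01 and -5.21, and of the others that of Csgalnact1 alone leaves out 0.

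**Figure D4:**
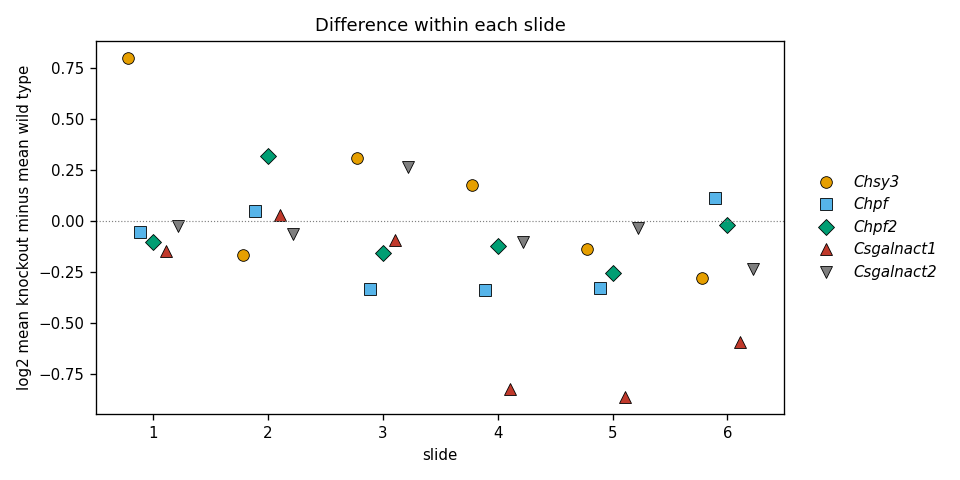
Difference in mean log2 ratio, knockout minus wild type, within each of the 6 slides (horizontal axis) for the 5 members other than Chsy1, with a dotted line at 0. Csgalnact1 lies at -0.82, -0.87 and -0.60 on slides 4 to 6 and near 0 on slides 1 to 3. On slides 4 to 6 the single wild-type array sat in position 1.

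The members differed in how much they varied within a genotype. The pooled within-group SD of the log2 ratio was 0.34 for Chsy3 and 0.31 for Csgalnact1, above that of 87.6% and 83.1% of tested genes. Chpf and Chpf2 stood at 0.17 each and Csgalnact2 at 0.14, below the median of 0.19 over all genes. The value of 1.09 for Chsy1 rests on knockout 1, since the SD among the other 12 knockout arrays was 0.31.

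The genes that moved most like each member from array to array were sought among 16149 named genes, after removing the genotype means; the Pearson r over 22 arrays is a description, and the arrays share slides and depth. For Chpf the nearest were Ctsz, a lysosomal cathepsin (r = 0.874), Col2a1, the main collagen of cartilage (r = 0.874), and Cacng1, a muscle calcium channel subunit (r = 0.865). For Csgalnact1 they were Acaa2, a mitochondrial thiolase (r = 0.893), Fbln7 (r = 0.886) and Bcl6, a transcriptional repressor (r = 0.886). For Chsy3 they were Cdh10, a cadherin (r = 0.930), Adamtsl1 (r = 0.904) and Abcg5 (r = 0.903). For Chpf2 the nearest was Mef2d, a MADS-box factor (r = 0.831), and for Csgalnact2 Ptpmt1, a mitochondrial phosphatase (r = 0.865). With wild-type 1 and knockout 1 left out, these values ranged from 0.848 to 0.897. Chsy1 was the exception: its nearest gene, the hormone Sst, had r = 0.763 with all arrays and -0.165 without those 2. With the mean of 17 cartilage markers, r was 0.519 for Chpf, 0.679 for Chsy3, 0.386 for Chpf2 and 0.354 for Csgalnact1. It was 0.0161 for Chsy1 and -0.0886 for Csgalnact2. Without wild-type 1 and knockout 1, r was 0.618 for Chpf, 0.391 for Chsy3, 0.317 for Chpf2 and 0.469 for Csgalnact1. It was then -0.179 for Chsy1 and 0.0287 for Csgalnact2.

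**Figure D5:**
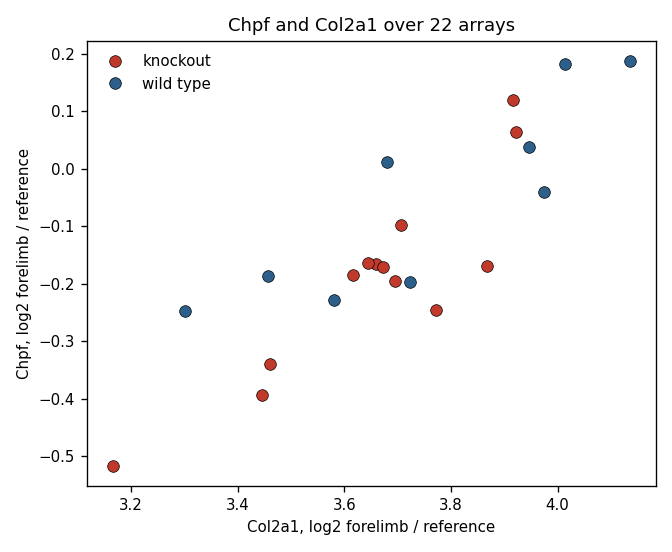
Log2 ratio of Chpf against that of Col2a1 on each of the 22 arrays, knockout and wild type marked. Arrays with a higher Col2a1 ratio tend to have a higher Chpf ratio (r = 0.874 with genotype means removed), and knockout 12 is lowest in both. Col2a1 was picked for its high r among 16149 genes. With the mean of the 17 cartilage markers Chpf had a lower r, 0.519.

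Elsewhere in chondroitin synthesis no gene passed between genotypes. Of 7 linker enzymes, which build the sugar bridge to the core protein, 5 were lower and 2 higher, with a median difference of -0.03; Xylt2, which adds the first xylose, differed by -0.08. Of 10 enzymes that sulfate the chain or turn it into dermatan sulfate, 6 were lower, with a median of -0.03; Dse, a dermatan epimerase, differed by -0.17 and the sulfotransferase Chst13 by -0.13. Of 14 genes that supply sugar nucleotides and sulfate donors, 10 were lower, with a median of -0.05; Bpnt2, a Golgi phosphatase, differed by -0.23. These medians lie within 0.05 of that over all genes, -0.0072, where 9942 genes were lower and 8685 higher.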

How the data were processed

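Total RNA of 13 knockout and 9 wild-type forelimb samples was labelled with Cy5 and co-hybridised with Cy3 reference RNA, per the labels' protocols. The submitters' processing notes name Agilent Feature Extraction 9.5, and the file headers give its version as 9.5.3.1. Spot and background brightness was deposited as raw intensities; the deposited ratio is the log10 of Cy5 over Cy3 signals processed by that software, and the deposited value table equals it (largest difference 0). The deposited flags, for spots that were outlying, saturated or above background, take the values 0 and 1.

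Mean intensities were background-corrected (normexp, offset 50), normalised by loess within arrays with control and outlier spots at weight 0, and averaged per probe. A probe was tested if at least 9 arrays flagged its Cy5 as well above background (27782 probes), and the brightest probe stood for its gene. Names were updated through RefSeq tables of GRCm38.p6: 23374 probes matched by their accession, 103 by another, 6678 by current and 2891 by older symbol, while 1828 kept the array name and 6300 had none. Coordinates of probes are mm8, as the files give them; no mm8 annotation was used here. The fit used limma 3.58.1 in R 4.3.3 (lmFit, eBayes) on all 22 arrays without covariates, with Benjamini-Hochberg adjustment over all tested genes at 0.05; it was tested on simulated data. Named were the 6 members with every probe, 2 genes of each other pathway list with the smallest unadjusted p, up to 2 markers a list and the 3 genes most like each member. 1 gene that this rule names is not reported here. Members and lists were chosen with earlier results of these data known. Alternatives covered background, normalisation, channel, filter, probes, blocks, weights and omitted arrays.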

Additional observations from a re-analysis of the deposited data

How the results depend on the processing

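Of the members, Chsy1 kept its call in 39 of 40 alternatives; the exception was position 2 alone, with a difference of -4.66 (3 arrays of each genotype). Csgalnact1 was lower in knockout in all 40 and passed in none, with adjusted p from 0.211 to 1. Its difference ran from -0.417 to -0.0024 over 18 settings, the smallest in position 2 without knockout 1. Over the 22 single omitted arrays it ran from -0.4484 to -0.2845. The alternatives reuse the same arrays, so their shared sign is not independent support. The number of genes called was 4 in the reported fit. It was 2 with normexp at offset 0 and with wild-type 1 and knockout 1 left out, 1 with the scanner software's ratio, median centring, the slide, replicate or position block and position 2 without knockout 1, 0 in position 2 alone, and 8 with array weights; leaving out single arrays gave 2 to 6, and it was 2 without wild-type 2, wild-type 5 or wild-type 6. The 0 of position 2 is a limma count from 6 arrays.

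Median centring turned the differences of Chpf (0.1636), Chpf2 (0.2894) and Csgalnact2 (0.3193) to higher in knockout, with the median of all genes at 0.2379, and turned Chpf (0.5345 in knockout, 0.3709 in wild type) and Chpf2 (0.7766 in knockout, 0.4872 in wild type) to above the reference. Averaging its probes moved Chpf2 in wild type past the threshold against the reference (-0.1001). Csgalnact2, with a difference near 0, changed sign with the scanner ratio (0.009513), Cy5 alone (0.005085) and wild-type 1 and knockout 1 left out (0.002655), and ranged from -0.04032 to 0.01182 over single omitted arrays, above 0 without wild-type 6 (0.002717) or knockout 5. Chsy3 changed sign with position as a block (-0.108), in position 2 alone (-0.108) and there without knockout 1 (-0.09276). Apart from the stated construction of each setting, the cause was not tested.

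Deviations of same-numbered samples of the 2 groups had correlations of -0.313 to 0.494 over 9 numbers, which show no common pairing. They cannot exclude a pairing, since paired samples need not deviate together. With the replicate block 1 gene was called; Chsy1 differed by -5.901 and Csgalnact1 by -0.319 (limma adjusted p = 1). Chsy3 levels are limited by a reference signal near background: over the alternatives the log2 ratio was 1.011 to 3.937 in knockout and 0.8972 to 3.715 in wild type. The Chpf2 difference was -0.3164 with position as a block or in position 2 alone.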

Other observations

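Chains other than chondroitin and the proteins that carry chondroitin chains gave no passing gene between genotypes. Of 5 heparan sulfate polymerases and initiators, which compete for the same linker, 3 were lower and 2 higher. Extl1, a transferase of this group, averaged 0.98 in knockout and 1.27 in wild type on the log2 ratio scale. The difference was -0.29 (limma unadjusted p = 0.00784, adjusted p = 0.909). Ext2, a subunit of the heparan polymerase, averaged -0.57 in knockout and -0.45 in wild type, a difference of -0.12. Of 18 tested core proteins 13 were lower and 5 higher, with a median difference of -0.09 against -0.0072 over all genes. Epyc, a small proteoglycan of growing cartilage, averaged 2.60 in knockout and 3.43 in wild type, a difference of -0.83 (limma unadjusted p = 0.00743, adjusted p = 0.909). Cd44, the hyaluronan receptor, averaged -2.97 in knockout and -2.78 in wild type, a difference of -0.19.

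Of the other tissues of the limb, 13 of 15 skeletal muscle markers and 9 of 10 endothelial markers were lower in knockout, with none passing. The median differences were -0.16 and -0.03. Over all tested genes 9942 were lower and 8685 higher, with a median of -0.0072. Whether any tissue as a whole differed between genotypes was not tested. Of 12 forelimb mesenchyme markers 9 were higher, with a median of 0.17, and Prrx2, a limb homeobox gene, differed by 0.30 (limma adjusted p = 0.909).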
